A study of Mus musculus with 4 samples.

Results

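Amyloid precursor protein, its paralogs and the secretases that cut them were followed in the hippocampus of transgenic APPSw mice and of nontransgenic controls. Of 9 named genes (App, Aplp1, Aplp2, Bace1, Psen2, Ncstn, Adam10, Adam17 and Adam9), 7 had a probe set that the platform annotation pairs with that gene symbol alone. These 7 genes had 9 probe sets, out of 12422 probe sets of 8251 genes in the whole table. No probe set paired with the symbols Bace1 or Ncstn was analysed here. Each probe set is a handful of short probes against the same transcript, and every one for each gene is given.

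The APPSw group was 2 left hippocampi from male Tg2576 mice, which overexpress amyloid precursor protein carrying the Swedish mutation. The control group was 2 left hippocampi from male nontransgenic C57B6/SJL mice, and all were 12 months of age. Each was measured on 1 Affymetrix array. The Tg2576 transgene is a human APP coding sequence driven by a hamster prion protein promoter, which acts mainly in neurons, while the mouse App gene remains in place. The labels do not say that the mice were littermates, and p-values cover no more than the differences among these samples, which could be technical.

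Amyloid precursor protein is a membrane protein of neurons and other cells. Alpha-secretases of the ADAM family cut it within the amyloid beta stretch and release its ectodomain. Beta-secretase, encoded by Bace1, cuts at the start of that stretch, and the gamma-secretase complex, with presenilin as its catalytic subunit and nicastrin, encoded by Ncstn, among its other parts, then cuts within the membrane and frees amyloid beta. The Swedish mutation lies at the beta-secretase site and makes the precursor a better substrate for that enzyme. The paralogs Aplp1 and Aplp2 encode proteins that the same enzymes cut but that hold no amyloid beta stretch.

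The mouse App promoter is shown because the transgene does not use it, and that of Aplp2 because it is the paralog with a probe set above the signal filter used below. Each line gives the 250 bases before a RefSeq transcript start in build GRCm38.p6, 5′ to 3′ on the gene's own strand, with GC boxes (GGGCGG on either strand) in capitals. Both genes lie on the minus strand. The App window is chr16:85173708-85173957, and the gene's RefSeq span, 84952666 to 85175255, reaches past it, so another transcript starts farther upstream. The Aplp2 window is chr9:31211849-31212098.
App: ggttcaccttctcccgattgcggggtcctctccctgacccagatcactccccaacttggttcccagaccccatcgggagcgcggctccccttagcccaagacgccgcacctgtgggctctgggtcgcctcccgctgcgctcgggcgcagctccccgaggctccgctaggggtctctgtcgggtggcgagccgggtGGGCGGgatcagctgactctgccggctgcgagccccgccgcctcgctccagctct
Aplp2: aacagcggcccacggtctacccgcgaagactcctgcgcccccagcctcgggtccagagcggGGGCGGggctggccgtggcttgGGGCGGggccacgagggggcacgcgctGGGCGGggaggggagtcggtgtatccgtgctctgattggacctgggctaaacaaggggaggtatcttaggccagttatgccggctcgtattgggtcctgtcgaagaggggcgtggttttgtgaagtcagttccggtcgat
The App window held 1 GC box and the Aplp2 window 3, with a GC content of 70.8% and 66.4%. RefSeq windows were given for 7 of the 9 genes, and 6 of their 8 windows held a GC box, against 32.7% of all 32851 windows of the same length. The letters TATAAA, searched on both strands, were in 0 of the 8 windows and in 12.4% of all. These matches describe letters and not binding.

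Signals are linear values that the authors scaled alike on every array, and they were compared on the log2 scale with limma, adjusted by Benjamini-Hochberg over 7453 probe sets. Kept for this test were probe sets with a mean log2 signal at or above the 40th percentile, which is 565 as a geometric mean, and 6 of the 9 probe sets here, from 5 genes, were among them. Signals on different probe sets are not comparable, so each is set only against itself on other arrays, except in the sums over marker lists. Differences are APPSw minus control. Two-sided exact permutation tests of 2 arrays against 2 cannot give a p below 0.333.

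None of the 6 probe sets above the filter passed the test. The lowest adjusted p was 0.623 by limma, and 0 of the 6 had an unadjusted p under 0.05. Over all 7453 probe sets, 0% passed the adjusted threshold and 8.05% had an unadjusted p under 0.05. In mean log2 signal all 6 lay below the controls, App by a negligible amount, and over all probe sets 47.3% lay below. Both APPSw arrays lay under both control arrays for 4 of the 6 (Aplp2, Psen2, 1 of the Adam10 probe sets, and Adam9), against 19.0% of all probe sets tested. The median log2 difference of the 6 was -0.26, against 0.018 over all probe sets tested.

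App, the precursor gene itself, had nearly equal means in the groups. Its probe set 93063_at had signals of 96435 and 83384 on the APPSw arrays, against 84901 and 94877 on the control arrays. The groups overlapped fully, with an APPSw array highest and the other APPSw array lowest. The means were 89910 ± 9228 in APPSw mice and 89889 ± 7054 in controls (SD, n = 2 each). The log2 difference was -0.0013 (SE 0.18), and its 95% interval reached from 0.73-fold to 1.37-fold (limma adjusted p = 0.999). Where these mouse probes lie on the human coding sequence of the transgene was not analysed here, so the signal cannot be assigned to the mouse gene or to the transgene.

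The 3 genes outside the family and its secretases whose pattern over the 4 arrays was nearest to that of App were Prpmp5, Tle3 and Ilkap. Likeness was the root mean square difference of log2 signals after each probe set was centred on its own mean, and was 0.0063, 0.0094 and 0.018. The median over 5665 genes was 0.20, and 605 genes lay within 0.1 of App. App shared its near-level pattern with many genes.

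**Figure D1:**
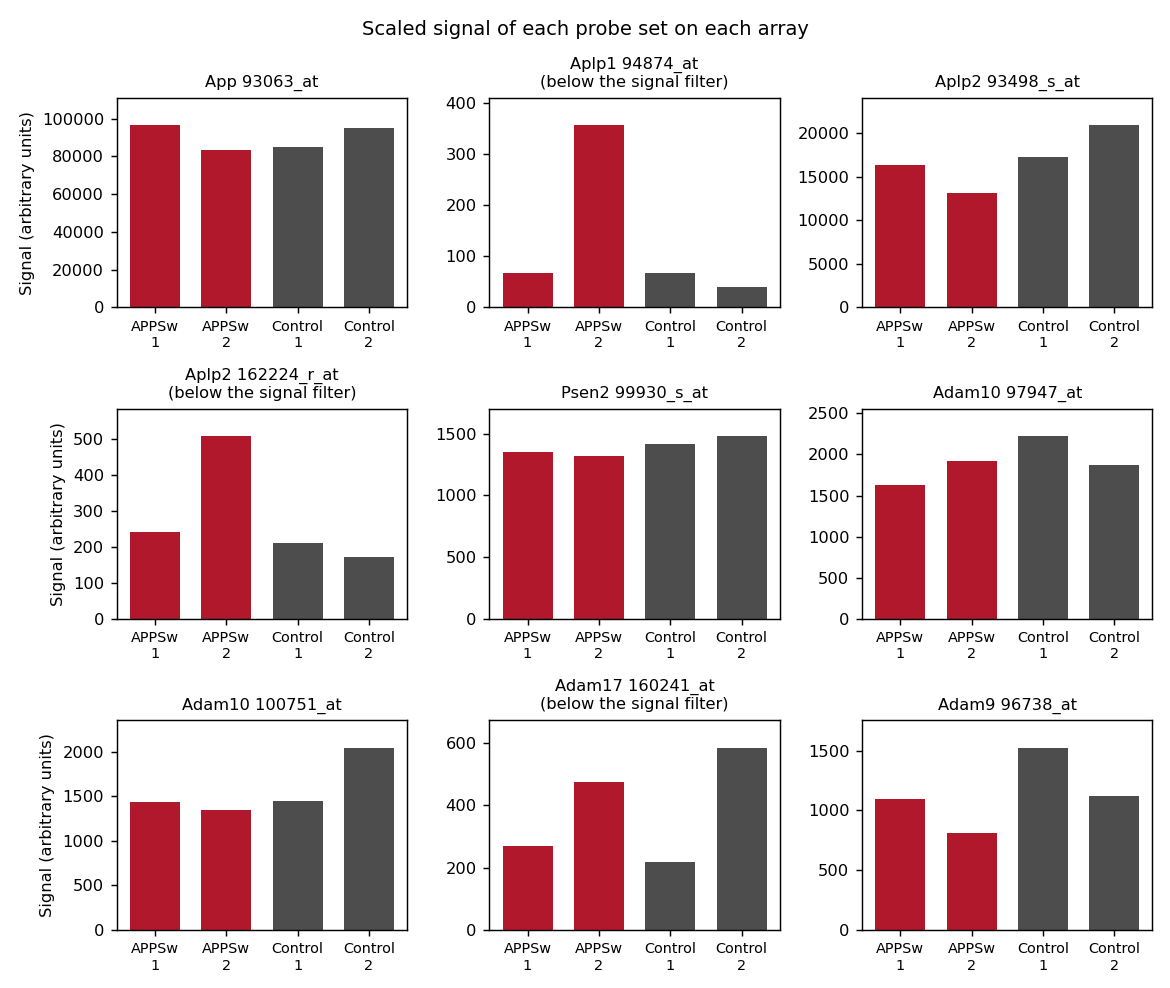
Scaled signal (linear, arbitrary units) of each of the 9 probe sets, with 1 bar for each array, APPSw in red and control in grey, and an axis from 0 for each probe set. App lies at 83384 to 96435, the lower APPSw bars are seen for the brighter Aplp2 probe set and for Adam9, and the 3 probe sets under the filter have a single high array or a pair of high arrays.

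Aplp2, the more widely expressed of the paralogs, had 2 probe sets that went opposite ways. The probe set 93498_s_at had signals of 16294 and 13158 on the APPSw arrays, against 17213 and 20897 on the control arrays. Both APPSw values lay below both controls, the nearest pair by a small step. Its log2 difference was -0.37 (SE 0.21), a factor of 0.77 with a 95% interval of 0.54 to 1.10 (limma adjusted p = 0.634). It was -0.22 without APPSw 2, -0.23 without Control 2, -0.53 without APPSw 1 and -0.51 without Control 1.

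The other Aplp2 probe set, 162224_r_at, lay below the filter. Its signals were 241 and 509 on the APPSw arrays, against 210 and 171 on the control arrays. The APPSw values were both above the controls, and APPSw 2 was 2.11-fold above APPSw 1. With the probe sets averaged, the log2 difference of Aplp2 was 0.25 (SE 0.20, limma adjusted p = 0.727), the reverse of the brighter probe set. In the manufacturer's naming, the letter s marks probes that may match more than 1 related sequence, and r marks a set for which some probe selection rules were dropped.

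Aplp1, a paralog known mainly from neurons, was measured by the dim probe set 94874_at. Its signals were 68.4 and 356.5 on the APPSw arrays, against 68.3 and 39.6 on the control arrays. APPSw 2 stood alone, and APPSw 1 and Control 1 differed by 0.1 units. The log2 difference of 1.59 had no test in the main fit, since the probe set lay below the filter, and it was 0.40 without APPSw 2. With signals under 250 set to 250 it was 0.26. With the filter dropped, the limma adjusted p for the difference of 1.59 was 0.783. A dim Aplp1 signal in the hippocampus describes this probe set and gives no level of the transcript.

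Psen2 encodes presenilin 2, one of the alternative catalytic subunits of gamma-secretase. It was the steadiest of the measured secretase genes among those named at the start. Its probe set 99930_s_at had signals of 1348 and 1323 on the APPSw arrays, against 1415 and 1478 on the control arrays. The groups did not overlap, but the whole span from the lowest to the highest array was 1.12-fold. The means were 1335 ± 17.9 in APPSw mice and 1447 ± 44.2 in controls (SD, n = 2 each). The log2 difference was -0.12 (SE 0.17), with a 95% interval of 0.69-fold to 1.23-fold (limma adjusted p = 0.858).

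Among the alpha-secretases, Adam10, the main constitutive alpha-secretase of neurons, had 2 probe sets, both above the filter. The probe set 97947_at had signals of 1634 and 1922 on the APPSw arrays, against 2220 and 1877 on the control arrays. APPSw 2 lay above Control 2, so the groups overlapped. Its log2 difference was -0.20 (SE 0.19, limma adjusted p = 0.770), with -0.087 without APPSw 1, -0.083 without Control 1, -0.32 without APPSw 2 and -0.33 without Control 2.

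The probe set 100751_at had signals of 1437 and 1341 on the APPSw arrays, against 1444 and 2046 on the control arrays. The groups did not overlap, but APPSw 1 and Control 1 were nearly equal, and Control 2 was 1.42-fold above Control 1. The log2 difference was -0.31 (SE 0.22, limma adjusted p = 0.706), with -0.057 without Control 2 and -0.56 without Control 1. The probe sets shared a direction but not an order of arrays: Control 1 was highest by 97947_at and Control 2 by 100751_at. Averaged over both, Adam10 had a log2 difference of -0.26 (SE 0.17, limma adjusted p = 0.682).

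Adam9, another ADAM protease with alpha-secretase activity in cultured cells, was measured by the probe set 96738_at, above the filter. It had signals of 1098 and 810 on the APPSw arrays, against 1528 and 1120 on the control arrays. Both APPSw values lay below both controls, but APPSw 1 and Control 2 were close, and each group spread by about as much as the groups differed: 1.36-fold between the APPSw arrays and 1.36-fold between the controls. The log2 difference was -0.47 (SE 0.25), a factor of 0.72 with a 95% interval of 0.47 to 1.10 (limma adjusted p = 0.623). Of all probe sets tested, 13.4% had a log2 difference of greater size. Without APPSw 1 the log2 difference was -0.69, without APPSw 2 it was -0.25, without Control 1 -0.25 and without Control 2 -0.70.

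Adam17 encodes the sheddase of tumour necrosis factor, which acts as a regulated alpha-secretase, and lay below the filter. Its probe set 160241_at had signals of 270 and 476 on the APPSw arrays, against 217 and 587 on the control arrays. The groups overlapped fully, each with a low and a high array. The log2 difference was 0.0052, with no test in the main fit, and was 0.72 without Control 2 and -0.71 without Control 1. With the filter dropped, the limma adjusted p for the difference of 0.0052 was 0.999.

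**Figure D2:**
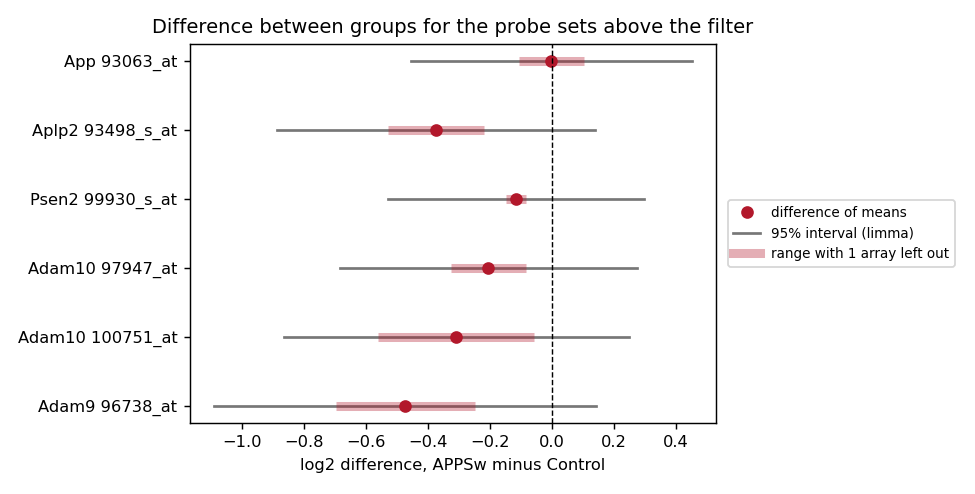
Log2 difference, APPSw minus control, for the 6 probe sets above the filter, with limma's 95% interval as a grey line and the range over the 4 fits that leave out 1 array as a red band. Every interval spans 0, and the App band does too, from -0.11 to 0.10.

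Other genes of the pathway were grouped by role, and the lists were chosen with earlier results of these data known. Of 93 genes in 5 lists, 66 had a probe set and 54 passed the filter, each represented by its brightest probe set. By limma 0 of the 54 passed the adjusted threshold and 4 had an unadjusted p under 0.05, 2 higher and 2 lower, where 4.72% of all probe sets tested had one and were higher and 3.33% lower. They lay above the controls in 26 cases and below in 28, where 52.7% of all lay above, with a median log2 difference of -0.050. The arrays did not overlap for 40.7% of them, 11 higher and 11 lower, against 41.2% of all probe sets tested, 22.2% higher and 19.0% lower. In both measures these genes were near the background.

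Of the other parts of gamma-secretase and its assembly, 3 were measured, and none passed the test. Aph1a and Psenen, which encode subunits of the complex, had log2 differences of 0.10 (SE 0.17) and -0.070 (SE 0.17). Rer1, a sorting receptor that takes part in the assembly of the complex, had signals of 5385 and 4754 on the APPSw arrays, against 4541 and 3762 on the control arrays. These did not overlap, and the log2 difference was 0.29 (SE 0.19, limma adjusted p = 0.678), with 0.16 without Control 2 and 0.43 without Control 1. The remaining 6 genes of this list of 9 had no probe set analysed here.

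Of the other ADAM genes, 7 of 16 were above the filter, 4 above the controls and 3 below, with a median log2 difference of 0.023. Adam11, a neuronal member without a functional protease site, had signals of 4299 and 4052 on the APPSw arrays, against 6155 and 5477 on the control arrays. The groups were well apart for this gene, with a log2 difference of -0.48 (SE 0.17), but it did not pass the test (limma adjusted p = 0.609). Adam19 had a log2 difference of -0.31 (SE 0.19), which was -0.17 without Control 2. Adam28 had one of 0.30 (SE 0.25), which was 0.011 without APPSw 1, 0.58 without APPSw 2 and 0.16 without Control 2.

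Of 14 regulators of the secretases above the filter, 5 lay above the controls and 9 below, with a median log2 difference of -0.057. Timp1, an inhibitor of metalloproteases including ADAM10, had signals of 4303 and 3297 on the APPSw arrays, against 2053 and 2407 on the control arrays. The lower APPSw array was above both controls, and the log2 difference was 0.76 (SE 0.21, limma adjusted p = 0.599). Its other probe set, below the filter, gave -0.86.

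Tspan33 and Tspan5 encode tetraspanins of the group that escorts ADAM10 to the cell surface. Tspan33 had signals of 2898 and 2504 on the APPSw arrays, against 4075 and 3582 on the control arrays, a log2 difference of -0.50 (SE 0.19, limma adjusted p = 0.609). The groups did not overlap. Tspan5 had a log2 difference of -0.37 (SE 0.19, limma adjusted p = 0.620), and -0.21 without Control 2. Neither passed the test.

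**Figure D3:**
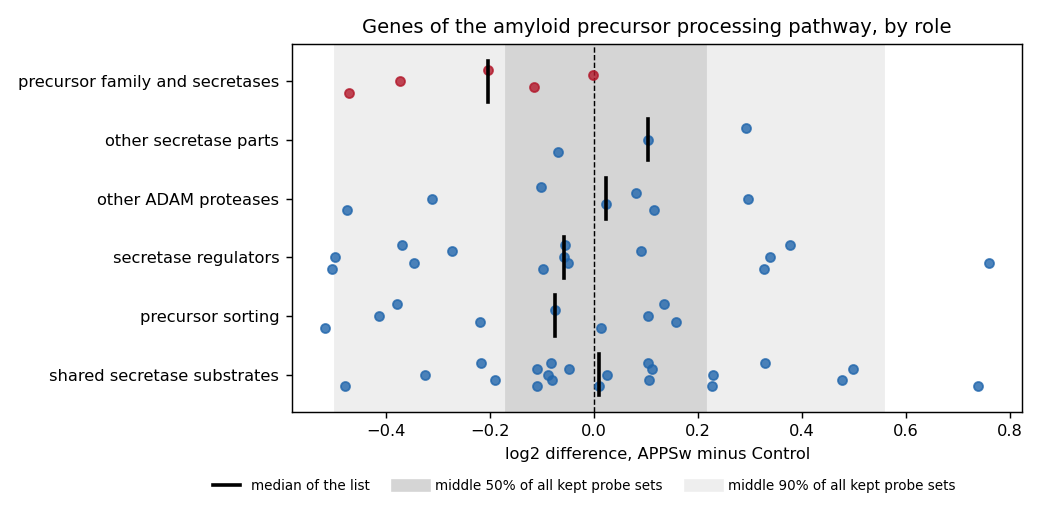
Log2 difference, APPSw minus control, of each gene above the filter (its brightest probe set), by role, with a bar at each list's median. The grey bands hold the middle 50% and 90% of all 7453 probe sets, from -0.17 to 0.21 and from -0.50 to 0.56, and the members in red lie at or below 0 within the wider band.

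Proteins that sort the precursor between compartments had 4 genes above the controls and 5 below of 9 above the filter, with a median of -0.075. Sorl1, a sorting receptor that holds the precursor back from the secretases, had signals of 1180 and 1719 on the APPSw arrays, against 2144 and 1939 on the control arrays. Both APPSw values were the lower ones, and APPSw 1 the lowest. The log2 difference was -0.52 (SE 0.23, limma adjusted p = 0.612), with -0.25 without APPSw 1 and -0.79 without APPSw 2. Gga2, a clathrin adaptor, had a log2 difference of -0.41 (SE 0.19). Snx17, a sorting nexin that binds the precursor, differed by -0.22 (SE 0.21), while its second probe set gave 0.44. Its value was -0.0044 without APPSw 2 and -0.43 without APPSw 1.

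Other substrates of the same enzymes lay above the controls in 11 cases and below in 10 of 21 above the filter, with a median of 0.0090. Chl1, a neural adhesion molecule that beta-secretase cuts, had signals of 4647 and 5822 on the APPSw arrays, against 2968 and 3270 on the control arrays. The groups stood apart, with a log2 difference of 0.74 (SE 0.20) that did not pass the test (limma adjusted p = 0.599). Alcam, an adhesion molecule that ADAM17 sheds, had a log2 difference of 0.48 (SE 0.21), which was 0.26 without Control 1. Notch2, a receptor cut by ADAM proteases and gamma-secretase, differed by 0.50 (SE 0.26), while its second probe set gave 0.14. Its value was 0.17 without APPSw 2 and 0.82 without APPSw 1.

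The tissue label was set against cell type markers, and the arrays were compared by the same lists. These lists too were chosen with earlier results of these data known. Each gene was represented by its brightest probe set above the filter. Markers of hippocampal principal neurons were measured with 10 of 12 genes above the filter. All 10 had a mean below that of the controls, against 47.3% of all probe sets tested. Their median log2 difference was -0.51. For 7 of the 10 both APPSw arrays lay under both control arrays, against 19.0% of all probe sets tested. The summed signal of the 10 was 43936 and 44314 on the APPSw arrays, against 65976 and 61742 on the control arrays. Such a sum follows the brightest probe sets most and gives no level for the list as a whole. General neuronal markers lay below the controls in 8 of 11 genes, with a median of -0.23. Gria1 lay above them at 0.37, but its second probe set, also above the filter, gave -0.67. The summed signals of the 11 were 214621 and 211966 on the APPSw arrays, against 215289 and 238985 on the control arrays. Oligodendrocyte markers lay below in 7 of 7, with a median of -0.28, but a second Mag probe set above the filter gave 0.25. None of these genes passed the adjusted threshold, and no signal in the table was at or below 0. The part of these markers in the lower means of Aplp2, Adam10 and Adam9 was not tested, and in tissue RNA fewer cells of a type and less RNA per cell cannot be told apart.

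Astrocyte markers had a median of -0.12 over 9 genes. Microglial markers went both ways, with a median of 0.11 over 8 genes. C1qc, a complement subunit, was the lowest of the list at -0.62. Cd68, a lysosomal protein of macrophages, was the highest at 0.47. Both were named after their values were seen. Csf1r was at -0.48 by its brightest probe set, but a second probe set above the filter gave 0.64. Markers of the choroid plexus, a neighbour of the hippocampus, set APPSw 1 apart. Of 15 listed genes 7 were above the filter. All 7 had a mean log2 signal above that of the controls, against 52.7% of all probe sets tested. The median over the 7 was 4.08-fold the control mean in APPSw 1 and 1.14-fold in APPSw 2. Both APPSw arrays lay above both controls for 2 of the 7, against 22.2% of all probe sets tested. For Igfbp2 and Kl, APPSw 2 lay below both controls. The summed signal of the 7 was 141387 and 20293 on the APPSw arrays, against 25932 and 16646 on the control arrays. Of these sums, Ttr alone gave 83384 and 3235.5 on the APPSw arrays, against 8908 and 1896 on the control arrays. Among the members, App alone was highest on APPSw 1. Without APPSw 1 the log2 difference was -0.53 for the brighter Aplp2 probe set, -0.13 for Psen2 and -0.69 for Adam9. Each was of greater size than with that array, but this was not particular to it. Aplp2 was -0.51 and Psen2 -0.15 without Control 1, and Adam9 was -0.70 without Control 2. Without APPSw 2 Aplp2, Psen2 and Adam9 were smaller in size, at -0.22, -0.10 and -0.25. Adam10 without APPSw 1 was -0.087 by 97947_at and -0.36 by 100751_at. The part of choroid plexus RNA in the member signals was not tested.

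**Figure D4:**
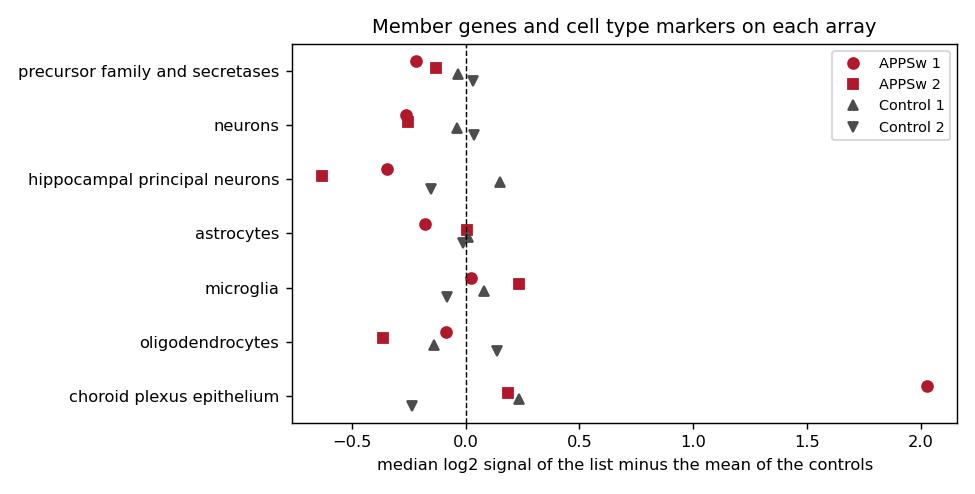
Median log2 signal of each list on each array, relative to the mean of the controls, APPSw in red and control in grey. The member genes lie at -0.22 and -0.13 on the APPSw arrays, against -0.031 and 0.031 on the control arrays, and the choroid plexus list in APPSw 1 stands at 2.03.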

How the data were processed

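Total RNA of 4 left hippocampi was measured on 1 Affymetrix array each. The values are linear signal intensities, computed by the authors with MAS 5.0 to a common target of 2500, per the labels. Other settings are not given in the labels.

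Of 12488 probe sets, 66 manufacturer's controls were left out. The platform annotation pairs 10833 of the other 12422 with 1 gene symbol, 396 with several and 1193 with none, and 10817 were found in the RefSeq gene table (GRCm38.p6). Log2 signals, with no further normalization, were tested in R 4.3.3 by limma 3.58.1 (two-sided moderated test from lmFit and eBayes, with 2 residual and 3.70 prior degrees of freedom). The number of arrays limits the precision. Probe sets under the 40th percentile of mean log2 signal were left out of the test, and the threshold was an adjusted p of 0.05. The fit was tested on simulated data.

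The members and lists were chosen with earlier results of these data known. Every member probe set is named. From each pathway list up to 3 genes with the largest moderated statistic are named, and 3 genes for likeness to App. Promoters are from RefSeq. Alternatives were leaving out single arrays (the array left alone is taken to vary as the other group does), quantile normalization, dropping the filter or raising it to the 60th percentile, 250 as a floor or as a pseudocount, a block for the replicate number, a variance trend with intensity, and averaging probe sets by gene.

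The median signal was 926 to 1033 per array, and arrays differed by a median of 1.14-fold to 1.20-fold in pairs, so no array repeats another. Deviations of same-numbered arrays from their group means had a correlation of -0.020, so the numbers were not taken to pair the mice.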

Additional observations from a re-analysis of the deposited data

How the results depend on the processing

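The number of probe sets called was 0 of all and 0 of the members under every alternative run with a probe set fit, and 0 genes were called by gene means. Unadjusted p under 0.05 held for 402 to 749 probe sets with 1 array left out and for 559 with the replicate number as a block (a paired fit), against 600. No member had an unadjusted p under 0.05 in any of these fits. The 6 member probe sets lay below the controls in all settings except quantile normalization and the fits without APPSw 2 or Control 2, where App turned and 5 did. App had a log2 difference of 0.068 after quantile normalization and -0.11 to 0.10 with 1 array left out. The brighter Aplp2 probe set, at -0.37, became 0.25 as the mean of the gene's probe sets. Psenen ranged from -0.14 to 0.0013 with 1 array left out. Small list medians changed sign: that of the other substrates, 0.0090, was -0.054 after quantile normalization, and that of the other ADAM genes, 0.023, was -0.054 there, -0.12 without APPSw 1 and -0.073 without Control 1. Without APPSw 1 precursor sorting turned to 0.047 and the regulators to 0.0010. The filter at the 60th percentile kept 3 of the 6 member probe sets, all below the controls. The causes were not tested. The dim Aplp1, Adam17 and second Aplp2 probe sets have no estimate of detection here.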
